A study of Mus musculus with 2 samples.

Results

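Matricellular proteins are secreted into the matrix around cells but act mainly by binding growth factors, proteases and cell surface receptors, and only partly by bearing load. Tenascins, thrombospondins, osteopontin, SPARC and periostin belong to this class, and many of them are made in development, wound repair and tumour stroma. Fibulins and fibrillin form elastic fibres and microfibrils, and nidogen links the laminin and collagen IV networks of the basement membrane, the sheet on which mammary basal cells rest. The 10 non-collagen matrix genes examined here were Tnc, Thbs1, Thbs2, Spp1, Sparc, Postn, Fbln1, Fbln2, Fbn1 and Nid1. They were chosen by name among the 49492 genes of the count table, with earlier results of these data known. All 10 passed the filter on low reads.

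The libraries came from wild-type (WT) female mice aged 8 to 10 weeks, whose mammary basal cells were sorted and grown in a 3D matrix gel for 11 to 14 days. In the control library (ctrl) the cells grew with no treatment. In the other library (M2) they shared the well with bone marrow macrophages that had been polarised by Il-4 and Il-13, held apart in an insert whose membrane has pores, and replaced at intervals. Each group held 1 library, so the spread between cultures is unknown and none of the differences could be compared with it. The libraries are bulk RNA, and in bulk RNA fewer cells of a type and less RNA per cell cannot be told apart. The gel itself is a basement membrane extract that contains nidogen and other matrix proteins, but RNA counts record only what the cells transcribe.

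In total, 26912610 reads were counted in ctrl and 29413844 in M2. Markers of the sorted cell type were abundant in both: the 8 basal epithelium genes, such as Krt5 and Krt14, summed to 7822 reads per 1000000 (CPM) in ctrl and 8181 in M2, with Krt17 called higher (log2 difference 1.39) and Oxtr lower (-2.18). Luminal markers, of the other epithelial layer, were present too: 9 genes summed to 3947 CPM in ctrl and 3309 in M2. Their median log2 difference was -0.78, and Elf5, Kit, Esr1 and Prlr were called lower (from -1.11 for Elf5 to -1.94 for Esr1). By flow cytometry of such cultures, the paper found far more luminal than basal cells in both groups, with a larger basal share in M2. Of 10 macrophage markers, Adgre1, Tyrobp, Fcer1g and Ptprc had 0 reads in both libraries, where a count of 0 allows up to 0.109 CPM in ctrl and 0.104 CPM in M2, and Lyz2 had 3 and 1 reads. The summed macrophage level of 64.8 and 81.7 CPM came mostly from Arg1 (1507 and 2090 reads), and 0 of the 3 macrophage genes tested were called. Fibroblast markers moved with the comparison: the 10 genes summed to 815 CPM in ctrl and 197 CPM in M2, and of 8 tested, 3 were called lower (Col1a2, Col3a1 and Col14a1) and 1 higher (Dcn). The summed fibroblast level in ctrl came mostly from Col14a1 (13318 and 1603 reads), while Pdgfra (607 and 822 reads) and Thy1 (257 and 253 reads) were not called, and Dpt and Fap had 1 and 2 reads in ctrl and 4 and 6 in M2. Pericyte markers summed to 372 and 175 CPM, mostly from Notch3 (358 and 168 CPM). Of 5 tested, 3 were called lower (Pdgfrb, Abcc9 and Notch3), while Rgs5 and Cspg4 were not called (log2 differences 0.27 and 0.41). Endothelial markers summed to 3.17 and 4.03 CPM, with 2 of 4 called lower and 1 higher. Those called lower had few reads (Cdh5 11 and 2, Kdr 11 and 0), and Pecam1 (33 and 76 reads) was called higher. The part of these other cell types in the values of the matrix genes was not tested. Beside these marker counts, 8.16% of all genes tested were called higher and 6.55% lower, by the test given in the next paragraph.

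Reads were compared by a two-sided exact binomial test with Benjamini-Hochberg adjustment over 19233 genes, and a call needed both an adjusted p under 0.05 and a difference of 2-fold or more. The test compares the reads of 2 libraries and not the conditions. In M2, 4 of the 10 genes were called higher (Spp1, Tnc, Fbln1 and Nid1) and 0 lower, while 6 were not called. Among all genes tested, 8.16% were called higher and 6.55% lower, 14.7% in all. Among the 12033 genes with at least as many reads as Thbs2, the least read of the 10, 9.41% were called in either direction. The median log2 fold difference of the 10 genes was 0.80 (6 positive and 4 negative), against -0.0032 over all genes tested. Without the fold threshold, 9 of the 10 genes had an adjusted p under 0.05 in the exact binomial test, as did 53.1% of all genes.

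**Figure D1:**
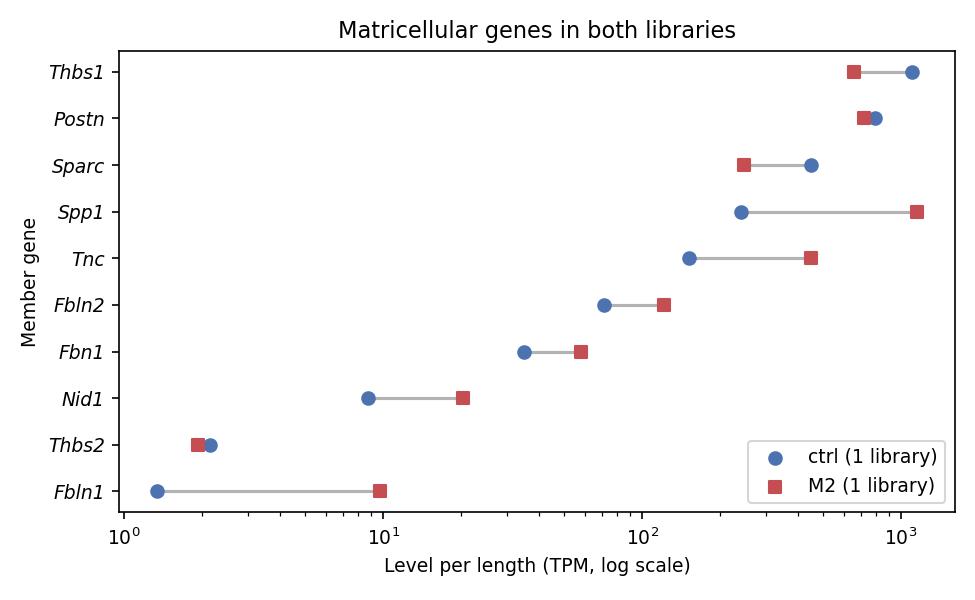
Level of each of the 10 genes per exon length (TPM, transcripts per 1000000, which are reads per exon base scaled to a common total in each library, on a log axis) in the ctrl library (blue circles) and the M2 library (red squares), with 1 library per group and no error bars. Spp1 moved from the fourth to the first place, from 241 to 1150 TPM, while Thbs1 moved from the first to the third, from 1102 to 660 TPM.

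The secreted glycoproteins with signalling roles are described first. Spp1 encodes osteopontin, a phosphorylated ligand of αv integrins and Cd44 that is made by epithelia, osteoblasts and macrophages. It lies on chromosome 5 from 104435118 to 104441050 (GRCm38, plus strand). The reads of Spp1 numbered 4199 in ctrl and 21651 in M2. Per exon length its level was 241 TPM in ctrl and 1150 TPM in M2. The log2 fold difference was 2.30 (95% interval 2.25 to 2.35, counting error only), or 4.91-fold. In the order of all genes by TPM, Spp1 stood at place 524 in ctrl and 81 in M2. Exons of Spp1 share 309 bases, 18.8% of its exon length, with the predicted gene Gm42793 on the same strand, so reads there cannot be assigned with certainty. Gm42793 had 1761 and 8742 reads, a log2 difference of 2.24, and the reads of both genes summed gave 2.28.

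Spp1 lies in a cluster of related genes for bone and tooth proteins, the SIBLING family, and the others were nearly silent in both libraries. Ibsp had 0 and 3 reads, Dspp 0 and 1, Mepe 0 in both, and Dmp1 35 and 41. All of these lie upstream of Spp1 on chromosome 5, between 104170712 (the start of Dspp) and 104338611 (the end of Mepe). The higher level was therefore not seen across the cluster: only Dmp1 among the 4 had enough reads to be tested, and its log2 difference of 0.15 was not called.

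Tnc encodes tenascin-C, a multi-armed glycoprotein of remodelling stroma that binds integrins and modulates adhesion to fibronectin. It lies on chromosome 4 from 63959785 to 64047015 (minus strand). Tnc had 12433 reads in ctrl and 39838 in M2, or 151.5 and 449 TPM, a log2 fold difference of 1.61 (95% interval 1.58 to 1.64). An antisense gene, 8030451A03Rik, shares 176 bases (2.26%) with its exons and had 674 and 2231 reads, a log2 difference of 1.66. The use of strand in counting is not given in the sources used here, so reads of this pair cannot be told apart in the shared bases. Among the other tenascins, only Tnxb was called. Tnxb fell from 86 to 4 reads (log2 difference -4.19, 95% interval -6.40 to -3.09). Tnn had only 10 reads in each library and was not called, and Tnr, with 2 and 3, had too few reads to be tested. Related genes were compared by the log2 odds ratio of their reads, which uses no pseudocount and so can differ from the difference of the log2 values where reads are few. For Tnc against Tnxb it was 6.11 (95% interval 4.70 to 8.02).

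Fbln1 encodes fibulin-1, a calcium-binding glycoprotein of basement membranes and elastic fibres. It lies on chromosome 15 from 85205949 to 85286535 (plus strand). It had 62 reads in ctrl and 485 in M2, the lowest count of the 10 genes in ctrl and the second lowest in M2. At 1.34 and 9.72 TPM its level stayed low, but its log2 fold difference of 2.88 was the largest of the 10, at the 98.5 percentile of all genes tested (95% interval 2.51 to 3.30; the exact binomial test gave an adjusted p = 1.04e-76). Nid1 encodes nidogen-1 (chromosome 13, 13437602 to 13512275, plus strand) and had 559 and 1402 reads, or 8.75 and 20.3 TPM. Its log2 fold difference was 1.26, with a 95% interval from 1.11 to 1.40 and an adjusted p = 2e-73 in the exact binomial test. The paralog Nid2 had 14 and 5 reads and was not called. The log2 odds ratio of Nid1 against Nid2 was 2.81 (95% interval 1.25 to 4.64), a wide range that follows from the few reads of Nid2, and an antisense gene shares 386 bases with Nid2.

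**Figure D2:**
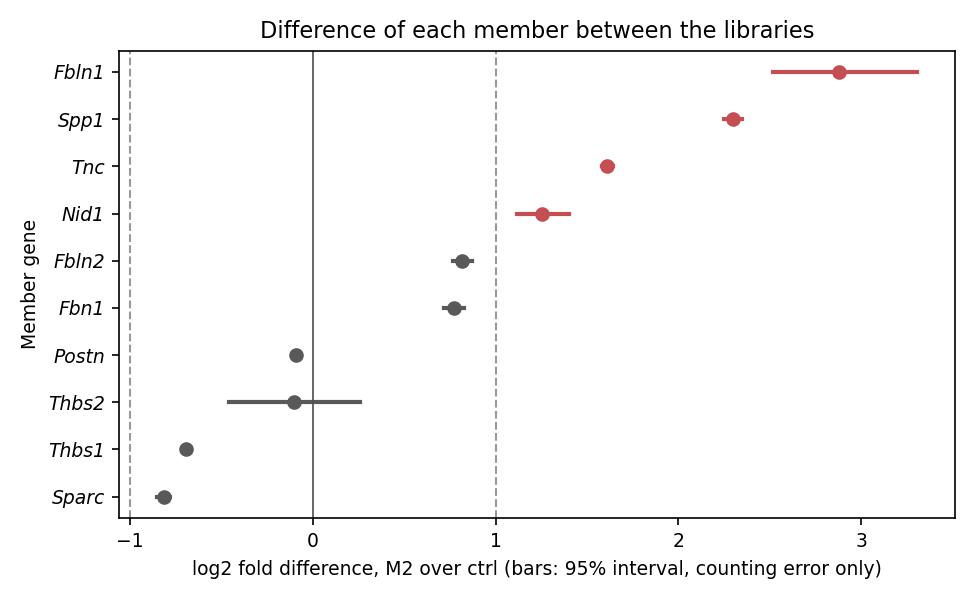
Log2 fold difference of each of the 10 genes, M2 over ctrl (points), with 95% intervals that cover counting error only (bars); dashed lines mark a 2-fold difference and red marks the genes called higher. Fbln1, Spp1, Tnc and Nid1 lie above the 2-fold line, from 1.26 to 2.88, and Sparc is the lowest at -0.82.

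The promoters of the 4 genes called higher are shown with that of Postn, an abundant gene whose reads hardly differed. They are the 250 bases before the RefSeq start nearest to the 5′ end of the gene in the count table (GRCm38.p6), written 5′ to 3′ on the strand of the gene, and 9 of the 10 genes were matched. That start lay at most 7 bases from the 5′ end in the table for 6 of them, but 309 bases away for Fbln2, 1555 for Fbn1 and 3103 for Sparc. Capitals mark matches, on either strand, to the letters TATAAA or to an NF-κB consensus of GGGA, any 4 bases and CC. TGANTCA (AP-1) and GCGTG were searched too, and no matches overlapped. GCGTG is not the only form of the HIF core, and the form ACGTG was not searched.
Tnc, chr4:64047016-64047265, minus strand: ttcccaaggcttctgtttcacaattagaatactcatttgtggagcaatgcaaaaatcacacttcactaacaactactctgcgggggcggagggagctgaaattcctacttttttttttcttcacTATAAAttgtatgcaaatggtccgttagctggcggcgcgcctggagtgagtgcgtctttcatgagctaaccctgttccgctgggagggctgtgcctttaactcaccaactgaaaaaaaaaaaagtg
Spp1, chr5:104434861-104435110, plus strand: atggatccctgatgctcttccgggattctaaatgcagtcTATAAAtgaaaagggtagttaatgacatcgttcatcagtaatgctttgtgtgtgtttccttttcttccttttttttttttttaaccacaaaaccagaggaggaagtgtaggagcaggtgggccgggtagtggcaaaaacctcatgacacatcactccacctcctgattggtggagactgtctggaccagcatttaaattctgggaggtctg
Fbln1, chr15:85205699-85205948, plus strand: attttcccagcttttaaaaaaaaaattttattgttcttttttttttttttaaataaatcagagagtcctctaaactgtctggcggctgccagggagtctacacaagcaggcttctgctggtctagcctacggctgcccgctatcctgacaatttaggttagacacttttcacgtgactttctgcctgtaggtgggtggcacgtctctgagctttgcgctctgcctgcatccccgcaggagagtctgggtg
Nid1, chr13:13437352-13437601, plus strand: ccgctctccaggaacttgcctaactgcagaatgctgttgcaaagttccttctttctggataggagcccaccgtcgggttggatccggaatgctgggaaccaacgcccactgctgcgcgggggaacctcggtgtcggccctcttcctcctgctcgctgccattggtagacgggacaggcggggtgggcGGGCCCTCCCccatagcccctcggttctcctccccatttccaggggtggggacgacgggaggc
Postn, chr3:54360857-54361106, plus strand: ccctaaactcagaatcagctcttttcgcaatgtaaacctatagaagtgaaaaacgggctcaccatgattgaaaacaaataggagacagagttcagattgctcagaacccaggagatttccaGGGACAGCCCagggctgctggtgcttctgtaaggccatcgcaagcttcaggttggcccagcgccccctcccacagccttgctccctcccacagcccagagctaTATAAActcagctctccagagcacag

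The TATAAA letters were found in 4 of the 9 promoters (Tnc, Spp1, Postn and Thbs2), against 12.4% of 32851 promoters of the same length. In Postn they lay 21 to 26 bases before the start, in Tnc 121 to 126 and in Spp1 206 to 211. The NF-κB consensus was found in 3 of the 9 (Nid1, Postn and Thbs2), against 17.6% of all promoters. The AP-1 letters were in 0 of the 9 (6.75% of all promoters) and the GCGTG letters in 0 of the 9 (28.2%). The 4 promoters of the genes called higher therefore had no match in common. Tnc and Spp1 held the TATAAA letters, Nid1 held the NF-κB consensus, and Fbln1 held none of the 4 letter patterns searched. The ACGTG letters, which were not searched, do occur in the Fbln1 promoter. The GC content of these 4 ran from 43.6% in Spp1 to 64.4% in Nid1, with a median of 52.4% over all promoters. A match of letters is not evidence of binding.

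Thrombospondins are trimeric or pentameric glycoproteins that bind calcium, Cd36, Cd47 and integrins, and Thbs1 is known for activating latent TGF-β and for restraining vessel growth. Thbs1 (chromosome 2, 118111876 to 118127133, plus strand) had 70663 reads in ctrl and 45811 in M2, or 1102 and 660 TPM. Its log2 difference of -0.69 (95% interval -0.71 to -0.68) did not reach 2-fold, and Thbs1 was not called. An antisense gene, Gm29233, shares 208 bases (3.42%) with Thbs1 and had 3169 and 2171 reads, a log2 difference of -0.61. Thbs2 (chromosome 17, 14665500 to 14694262, minus strand) had 134 and 131 reads, and its log2 difference of -0.10, with a 95% interval from -0.46 to 0.26, had an adjusted p = 0.68 in the exact binomial test. Per length, Thbs1 stood 514 times above Thbs2 in ctrl and 341 times in M2. The log2 odds ratio of the pair was -0.59 (95% interval -0.95 to -0.23). Among the other thrombospondins, Thbs4 fell from 521 to 9 reads (log2 difference -5.78, 95% interval -7.06 to -4.99), Comp (thrombospondin-5) rose from 40 to 121 reads, and Thbs3, with 120 and 87 reads, was not called.

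Sparc and Postn are collagen-associated proteins. Sparc (osteonectin; chromosome 11, 55394500 to 55423183, minus strand) binds collagen and calcium and loosens adhesion. It had 17968 reads in ctrl and 10710 in M2, or 449 and 247 TPM, a log2 difference of -0.82 (95% interval -0.85 to -0.78) that was the lowest of the 10 and was not called. Its paralog Sparcl1 had 96 and 198 reads and a log2 difference of 0.97, also not called, and the log2 odds ratio of the pair was -1.79 (95% interval -2.16 to -1.43). Smoc1, another calcium-binding relative of Sparc, fell from 1752 to 712 reads (log2 difference -1.37). Postn encodes periostin, a partner of collagen and tenascin-C in the matrix (chromosome 3, 54361109 to 54391037, plus strand), and had the most reads of the 10, 72824 in ctrl and 71795 in M2, or 792 and 722 TPM. Its log2 difference was -0.09 (95% interval -0.10 to -0.07), so it was nearly level while Tnc, its partner, was called higher. Sparc and Postn are also made by fibroblasts, whose summed markers, as given above, were 815 CPM in ctrl and 197 CPM in M2. Col14a1 alone made up 485 CPM of the sum in ctrl and 55.6 CPM in M2, and members of that list went both ways, with Pdgfra at a log2 difference of 0.37, Thy1 at -0.09 and Dcn called higher at 1.53.

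Fbn1 and Fbln2 are parts of microfibrils and elastic fibres. Fbn1 encodes fibrillin-1, the main protein of microfibrils (chromosome 2, 125300594 to 125507993, minus strand), and had 4491 and 8045 reads, or 35.1 and 58.1 TPM. Fbln2 encodes fibulin-2, which binds fibrillin-1, fibronectin and nidogen (chromosome 6, 91212455 to 91272540, plus strand), and had 4786 and 8854 reads, or 71.1 and 121.6 TPM. Their log2 differences were 0.77 (95% interval 0.72 to 0.82) and 0.82 (0.77 to 0.87), and neither was called. The log2 odds ratio of Fbn1 against Fbln2 was -0.05 (95% interval -0.12 to 0.03), so their change could not be told apart at this depth. That of Fbln1 against Fbln2 was 2.08 (95% interval 1.69 to 2.49), and the level of Fbln1 per length was 0.0189 of that of Fbln2 in ctrl and 0.0799 in M2. The antisense gene Gm9913 shares 20.1% of the exon length of Fbn1 but had only 166 and 274 reads.

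**Figure D3:**
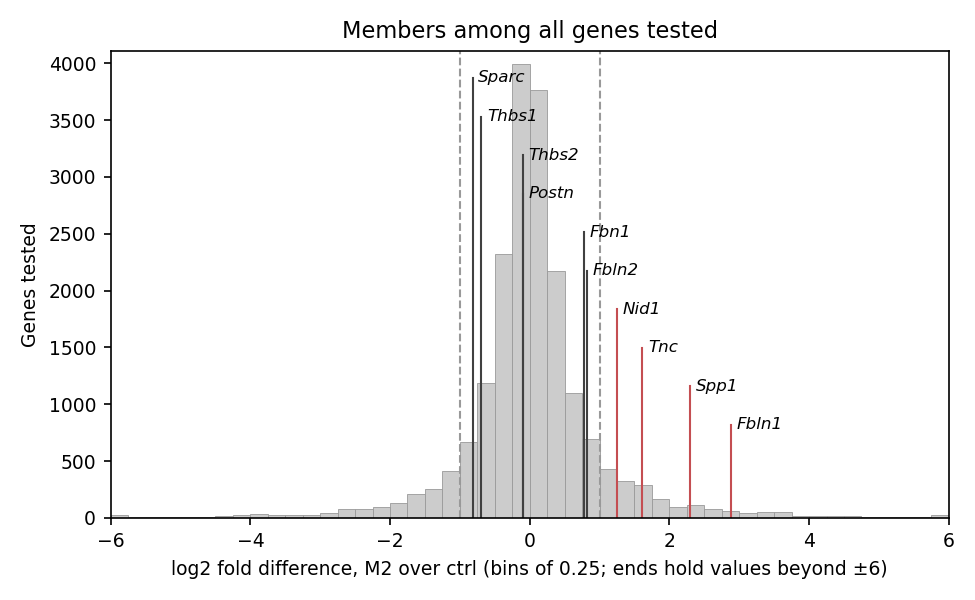
Number of genes tested (grey bars, 19233 genes) by log2 fold difference, M2 over ctrl, with the value of each of the 10 genes as a vertical line (red where called higher; line height has no meaning); dashed lines mark 2-fold. Postn and Thbs2 sit near the median of -0.0032, and Fbln1 lies at the 98.5 percentile, Spp1 at 97.5 and Tnc at 95.2.

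Summed over the 10 genes, the reads made up 0.699% of the ctrl library (95% Wilson interval 0.696 to 0.702) and 0.710% of the M2 library (0.707 to 0.713). The log2 difference of the sum was 0.08 (95% interval 0.07 to 0.09). Each gene was also left out in turn, a check chosen after seeing the data. The difference turned to -0.13 without Tnc and to -0.045 without Spp1. It rose to 0.40 without Thbs1, 0.18 without Postn and 0.15 without Sparc, and stayed positive without any of the other genes. Per length, the 10 genes summed to 2854 TPM in ctrl and 3439 in M2. Of the summed reads, Postn held the largest share in both libraries (38.7% in ctrl and 34.4% in M2), Thbs1 held 37.6% and 21.95%, Tnc 6.61% and 19.1%, and Spp1, the shortest gene, 2.23% and 10.4%. Of the summed TPM, Thbs1 held 38.6% in ctrl and 19.2% in M2, Postn 27.8% and 21.0%, and Sparc 15.7% and 7.19%. Spp1 held 8.45% in ctrl and 33.4% in M2, and Tnc 5.31% and 13.0%. Thbs2, Fbln1 and Nid1 each held under 1% in both libraries. A share falls when another gene rises, so the share of Postn dropped although its reads were nearly level.

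**Figure D4:**
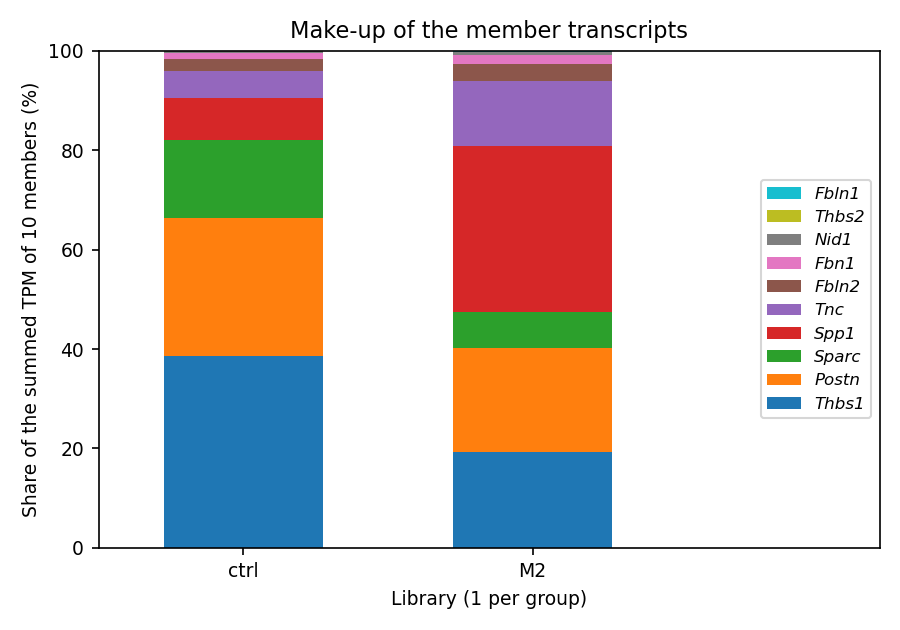
Share of the summed TPM of the 10 genes (%) held by each gene in the ctrl and the M2 library, 1 library per group. Spp1 (red) grew from 8.45% to 33.4% and Tnc (purple) from 5.31% to 13.0%, while Thbs1 (blue) went from 38.6% to 19.2%.

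To place the 10 genes among their relatives, 4 further lists were counted, beside 8.16% of all genes tested called higher and 6.55% lower. Among relatives of tenascin, thrombospondin, SPARC and osteopontin and the CCN proteins, 16 of 24 genes were tested, with 3 called higher and 4 lower and a median log2 difference of -0.04. The genes called higher were Tgfbi, Wisp2 and Comp. Tgfbi, a relative of periostin induced by TGF-β, rose from 28 to 288 reads (log2 difference 3.25), and Wisp2, a CCN protein, from 52 to 154 (1.48). Besides Thbs4, Tnxb and Smoc1, the gene called lower was Smoc2, with only 10 and 2 reads. The CCN genes with the most reads, Cyr61 (14226 and 14903 reads) and Ctgf (15081 and 14606 reads), both targets of YAP and TGF-β, had log2 differences of -0.0021 and -0.12 and were not called.

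In the list of elastic fibre genes, 18 of 21 were tested, with 2 called higher and 5 lower, and the median was -0.42. Ltbp1, which holds latent TGF-β in the matrix, fell from 4709 to 1511 reads (log2 difference -1.71). Fbln5, a fibulin that organises elastin, fell from 772 to 155 reads (-2.38), Eln, elastin itself, from 278 to 70 (-2.04), and Fbln7 from 293 to 13 (-4.46). Adamtsl2 had 35 and 8 reads and was the other gene called lower. Efemp1 (fibulin-3) rose from 8 to 93 reads (log2 difference 3.32, 95% interval 2.43 to 4.72) and Emilin1 from 70 to 201 (1.44). The fibulins thus moved in both directions: Fbln1 and Efemp1 were called higher, Fbln5 and Fbln7 lower, and Fbln2 and Efemp2 (fibulin-4; 617 and 782 reads, log2 difference 0.27) were not called. The large fibulin relatives Hmcn1 and Hmcn2 had values of -0.29 and -0.39 and were not called.

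Among basement membrane and adhesive glycoproteins, 16 of 18 genes were tested, with 4 called higher and 3 lower and a median of -0.03. Npnt (nephronectin, a ligand of integrin α8β1) rose from 187 to 900 reads (log2 difference 2.19), Ecm1 from 485 to 1822 (1.84), Vwa1 from 675 to 1959 (1.47) and Tinagl1 from 193 to 528 (1.38). Fras1, Frem1 and Egflam were called lower, each with 122 reads or fewer in either library. Fn1, the fibronectin to which tenascin-C binds, had 31707 and 59215 reads, a log2 difference of 0.83 that was not called, and the laminin-binding Hspg2, Agrn and Dag1 had values of 0.55, -0.46 and 0.03.

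Receptors were examined last. All 19 were tested, with 4 called higher and 3 lower, and the median was 0.27. Cd44, a receptor of osteopontin and hyaluronan, had 10330 reads in ctrl and rose to 37200 in M2 (log2 difference 1.78, 95% interval 1.75 to 1.81). Itga5, the fibronectin receptor subunit, rose from 790 to 1874 reads (1.18), Itgb6, whose dimer with αv binds tenascin-C, fibronectin and osteopontin, from 147 to 445 (1.52), and Stab1, a scavenger receptor for Sparc, from 16 to 100 (2.50). Itga9, a receptor subunit for tenascin-C and osteopontin, fell from 397 to 188 reads (-1.14), and Ptprz1, a phosphatase that binds tenascins, from 3431 to 1167 (-1.62). Cd36, the thrombospondin receptor, had 16 reads in ctrl and 0 in M2. The limit of its 95% interval nearest 0 was a log2 difference of -2.02 (counting error only). Itgav, Itgb3, Itgb5 and the thrombospondin receptor Cd47 had log2 differences of 0.34, 0.18, -0.02 and 0.43 and were not called.

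**Figure D5:**
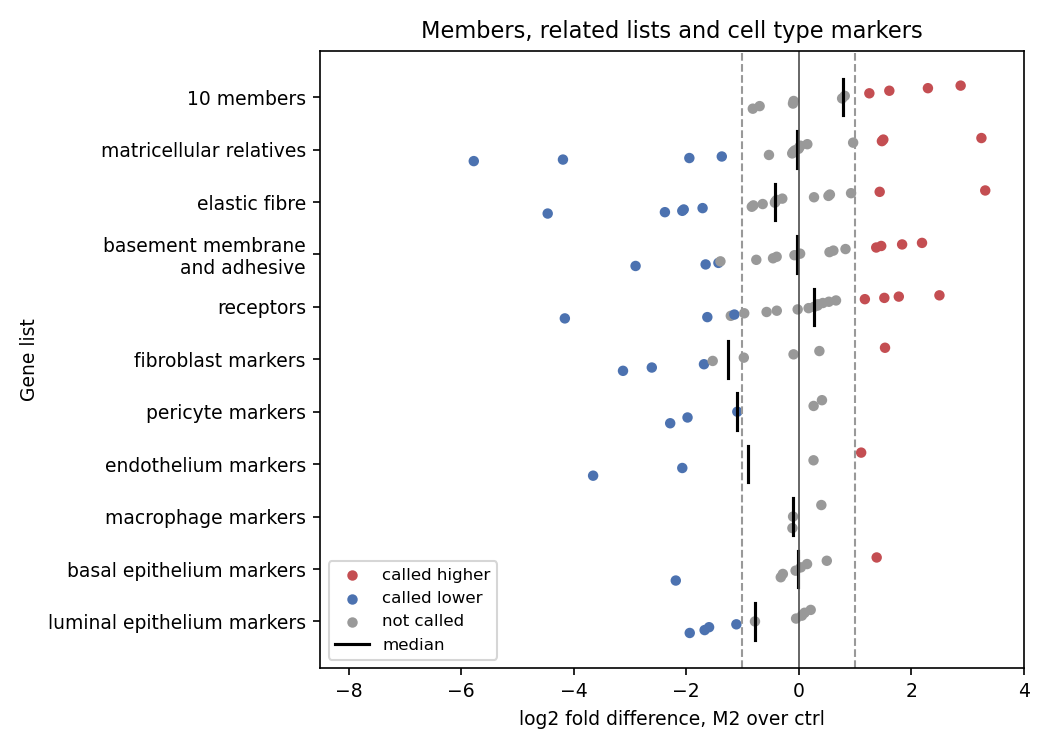
Log2 fold difference, M2 over ctrl, of every tested gene of the 10 matricellular genes, of 4 related lists and of 6 lists of cell type markers (points; red called higher, blue called lower, grey not called; black bars are medians). The related lists had genes called in both directions, with medians from -0.42 to 0.27, and the fibroblast markers had a median of -1.25.

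How many of the 10 genes were called depended on the threshold and on the spread assumed between cultures. With a 1.5-fold threshold 8 of the 10 were called, Fbln2 and Fbn1 as higher and Thbs1 and Sparc as lower in addition, against 23.9% of all genes. At 4-fold only Spp1 and Fbln1 were called, against 5.77% of all genes. With the exactTest of edgeR and an assumed biological coefficient of variation of 0.2, the same 4 genes were called, against 8.61% of all genes. At 0.4 none of the 10 was called, against 1.59% of all genes, and the adjusted p of the exactTest ran from 0.0826 for Fbln1 to 1 for Nid1. A single library per group cannot tell which of these values holds.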

How the data were processed

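The authors deposited 1 table of raw read counts per gene, not normalized, with 1 column per library (SMARTER mRNA kit per the labels). The submitters' processing notes name GRCm38 (mm10); the aligner, counter, annotation, strand use and read filters are not given in the sources used here. Genes with at least 10 reads in all were tested, after scaling by TMM in edgeR 4.0.16 (R 4.3.3; factors of 1.02 for ctrl and 0.980 for M2). Log2 fold differences used a pseudocount of 1 read and 95% Clopper-Pearson intervals, and pairs of genes were compared by the conditional exact interval of their odds ratio. Intervals and floors cover counting error only. They treat reads as independent, but without molecular identifiers repeated copies of the same molecule cannot be told apart. The intervals may thus be too narrow and the p-values too small. TPM was computed from the listed exon lengths, and positions were compared with GENCODE. The edgeR quasi-likelihood test and a DESeq2 test need replicates and could not be fitted; DESeq2 1.42.0 gave size factors only. The code was tested on simulated data. The gene members and lists were chosen with earlier results of these data known. From each related list, up to 3 genes called in each direction with the most reads were named, and any other gene was named after its values were seen. Older symbols stand for the CCN genes. The 26 gene names that a spreadsheet had turned into dates are in no list.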

Additional observations from a re-analysis of the deposited data

How the results depend on the processing

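The log2 fold differences and calls of the 10 genes were recomputed under 3 other scalings, 2 other pseudocounts and 2 other filters. The calls were also recomputed under 3 assumed coefficients of variation, which leave the log2 values unchanged. Of 100 values, 96 kept their direction and their call, 0 changed direction, and 4 (Tnc, Spp1, Fbln1 and Nid1) were no longer called, each with the exactTest at 0.4. A scaling shifts all genes alike, so a direction could change only in a gene with a difference near 0. Other fold thresholds were counted apart from these values. Genes that were not called could still cross the adjusted p threshold alone. In the exactTest at 0.1, Thbs1, Sparc, Fbln2 and Fbn1 crossed it, and Postn and Thbs2 did not. At 0.2, Thbs1, Sparc, Fbln2 and Fbn1 no longer crossed it. With the exactTest at 0.4, 0 of the 10 genes were called higher, and 0 basement membrane genes, 0 receptors, 3 tenascin and thrombospondin relatives and 2 elastic fibre genes were called. At a 4-fold threshold 2 of the 10 genes were called higher, with 3 tenascin and thrombospondin relatives, 2 basement membrane genes and 2 receptors. At 1.5-fold, 2 of the 10 were called lower. With at least 1 CPM in both libraries, which removes genes near 0, 4 tenascin and thrombospondin relatives and 4 elastic fibre genes were called, against 7 of each. The 1 CPM filter left 14594 genes to test, and their calls are counted in the next paragraph.

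Over all genes, 1570 were called higher and 1260 lower. The numbers were 806 and 581 with at least 1 CPM in both libraries, 2462 and 2143 at 1.5-fold, 616 and 494 at 4-fold, and 964 and 691 with the exactTest at 0.2 or 175 and 130 at 0.4. The log2 difference of the summed reads was -0.13 without Tnc and -0.045 without Spp1, but 0.40 without Thbs1. No paired analysis was possible because there is a single library in each group. Depth limits Thbs2, Nid2, Smoc2 and Egflam, among others, whose few reads leave wide intervals.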
